A study of Homo sapiens with 54 samples.

Results

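K562 cells were measured after 36 h with calcitriol and before it, with 2 arrays at each time. These 4 arrays were chosen by their labels, as all K562 arrays at 36 h and at 0 h, out of 54 arrays in the series. The series holds 9 human cell lines with 2 arrays each at 0 h, 8 h and 36 h on Affymetrix Gene 1.0 ST arrays. The 36 h group is labelled K562, agent calcitriol, 36 hr, and the 0 h group is labelled K562 at 0 hr. The 2 K562 arrays at 8 h with calcitriol are used where they bear on the 36 h values. Both groups come from the same line, so everything that is particular to K562 is shared by them. Replicates carry the numbers BR1 and BR2 and nothing says whether they came from separate cultures. The p-values therefore cover the spread between replicate arrays of the series alone, which may be technical. No dose of calcitriol is given in the sources used. K562 cultures kept for 36 h without calcitriol were not analysed here, so calcitriol and culture time cannot be told apart in any difference below. In such bulk samples a change in the share of cells and a change in RNA per cell also cannot be told apart.

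Calcitriol, the hormonal form of vitamin D, enters cells and binds the vitamin D receptor VDR. The receptor pairs with a retinoid X receptor on DNA and raises transcription of its targets. CYP24A1, which inactivates calcitriol, is the classical target in most tissues and limits the hormone's own action. K562 is a chronic myeloid leukaemia line that carries the BCR-ABL1 fusion and has features of early red cells, including embryonic and fetal globins. HL60, a promyelocytic leukaemia line, is known to turn towards monocytes under calcitriol.

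All values below are log2 expression, and a difference of 1 is a change by a factor of 2. Each is the deposited value of a probe set, the group of probes that reads a transcript. A difference is the mean at 36 h minus the mean at 0 h, with its standard error after the ± sign. The error and the p-values come from limma, where each probe set has 1 spread over all 27 groups of the series, so they are not the spread of K562 alone. A probe set was called changed at a Benjamini-Hochberg adjusted p under 0.05 over 19460 probe sets with 1 gene symbol.

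The array of 36 h BR1 stood apart. Its correlation with the other 36 h array over all these probe sets was 0.970, against 0.979 between the 0 h arrays and 0.989 between the 8 h arrays. It was closest to 0 h BR1 (0.984). The SD between the 2 arrays, as a root mean square over probe sets, was 0.332 at 36 h and 0.265 at 0 h, against 0.174 at 8 h. From the largest, K562 at 36 h ranked 3 and K562 at 0 h ranked 4 of the 27 groups, so the shared spread may be too small for them. Array medians in K562 ran from 5.42 to 5.69, with 36 h BR1 highest. The median difference of all probe sets was accordingly 0.13 at 36 h against 0 h, made of 0.26 between the BR1 arrays and -0.00 between the BR2 arrays, and it was 0.02 when 36 h BR1 was left out. Results are therefore given with and without 36 h BR1. The K562 label held against its markers: 10 of 12 measured K562 markers, among them the globin genes HBE1 and HBZ and the erythroid factors GATA1 and KLF1, were higher in K562 at 0 h than in any other line, the exceptions being LMO2 and TFRC. None of the measured markers of HL60 (0 of 6), monocytes (0 of 4), B cells (0 of 4), fibroblasts (0 of 6) or hepatocytes (0 of 6) was highest in K562.

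At 36 h 8 genes were higher than at 0 h and 0 lower. They make up 0.0411% and 0% of the probe sets tested, and 1592 probe sets had an unadjusted p under 0.05. The 8 are CYP24A1, the mTOR inhibitor DDIT4, the organic anion transporter SLCO1A2, the interleukin-10 receptor chain IL10RA, the cyclic nucleotide phosphodiesterase PDE11A, the granzyme B inhibitor SERPINB9, and the transcription factors BHLHE40 and EGR1. They reach from a factor of 5.44 for CYP24A1 down to 1.94 for EGR1. In each of the 8 genes both 36 h arrays lay above both 0 h arrays. Both 36 h arrays also lay above both 0 h arrays in 22.3% of all probe sets and below them in 3.88%, and with each array's median subtracted these shares were 12% and 10.9%.

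CYP24A1, the mitochondrial enzyme that begins calcitriol breakdown, read 7.15 and 5.03 at 36 h in BR1 and BR2, against 3.67 and 3.63 at 0 h. It rose by 2.44 ± 0.33 (adjusted p = 0.000264). The 36 h arrays are far apart, and the lower of them is still well above the 0 h arrays, which agree closely. At 8 h it read 3.67 in both arrays, the level of 0 h. All the 0 h and 8 h values lie well below the array medians, where these files cannot show whether a gene was above background, so the factor is not an exact fold.

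DDIT4, also called REDD1, is a stress-induced protein that restrains the growth kinase mTOR. It read 8.24 and 6.82 at 36 h, against 6.10 and 5.87 at 0 h, and rose by 1.54 ± 0.25 (adjusted p = 0.0037). Its 8 h arrays, at 6.02 and 6.07, were within the range of the 0 h arrays. Here too BR1 was the higher 36 h array.

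SLCO1A2, a carrier of bile acids and steroid conjugates, read 5.34 and 4.36 at 36 h, against 3.67 and 3.57 at 0 h (1.22 ± 0.20, adjusted p = 0.0037). PDE11A, which breaks down cyclic AMP and cyclic GMP, read 4.77 and 4.23 at 36 h, against 3.73 and 3.20 at 0 h (1.04 ± 0.21, adjusted p = 0.0357). Both lay below the array medians at 0 h and still did at 36 h. IL10RA, the ligand-binding chain of the interleukin-10 receptor, read 6.20 and 5.20 at 36 h, against 4.62 and 4.53 at 0 h (1.12 ± 0.20, adjusted p = 0.00738). Its 8 h arrays stood at 5.24 and 5.14, level with 36 h BR2, and the difference between 8 h and 0 h did not pass the test. In K562 IL10RA lay above the array median in 36 h BR1 alone.

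SERPINB9, an intracellular inhibitor of the killer-cell protease granzyme B, read 7.90 and 7.15 at 36 h, against 6.56 and 6.49 at 0 h (1.0 ± 0.18, adjusted p = 0.0119). BHLHE40, a repressor linked to the circadian clock and to low oxygen, read 8.85 and 8.00 at 36 h, against 7.52 and 7.40 at 0 h (0.97 ± 0.18, adjusted p = 0.0114). EGR1, a zinc finger factor of the immediate early class, read 8.82 and 8.25 at 36 h, against 7.59 and 7.56 at 0 h (0.96 ± 0.17, adjusted p = 0.00738). EGR1 was lower at 8 h than at either other time, at 6.98 and 6.82, so its distance from 36 h is wider against 8 h than against 0 h. The receptor gene VDR itself did not pass, at 5.33 and 4.87 at 36 h, against 4.36 and 4.96 at 0 h (0.44 ± 0.20, adjusted p = 0.565), and its 36 h and 0 h arrays overlap.

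**Figure D1:**
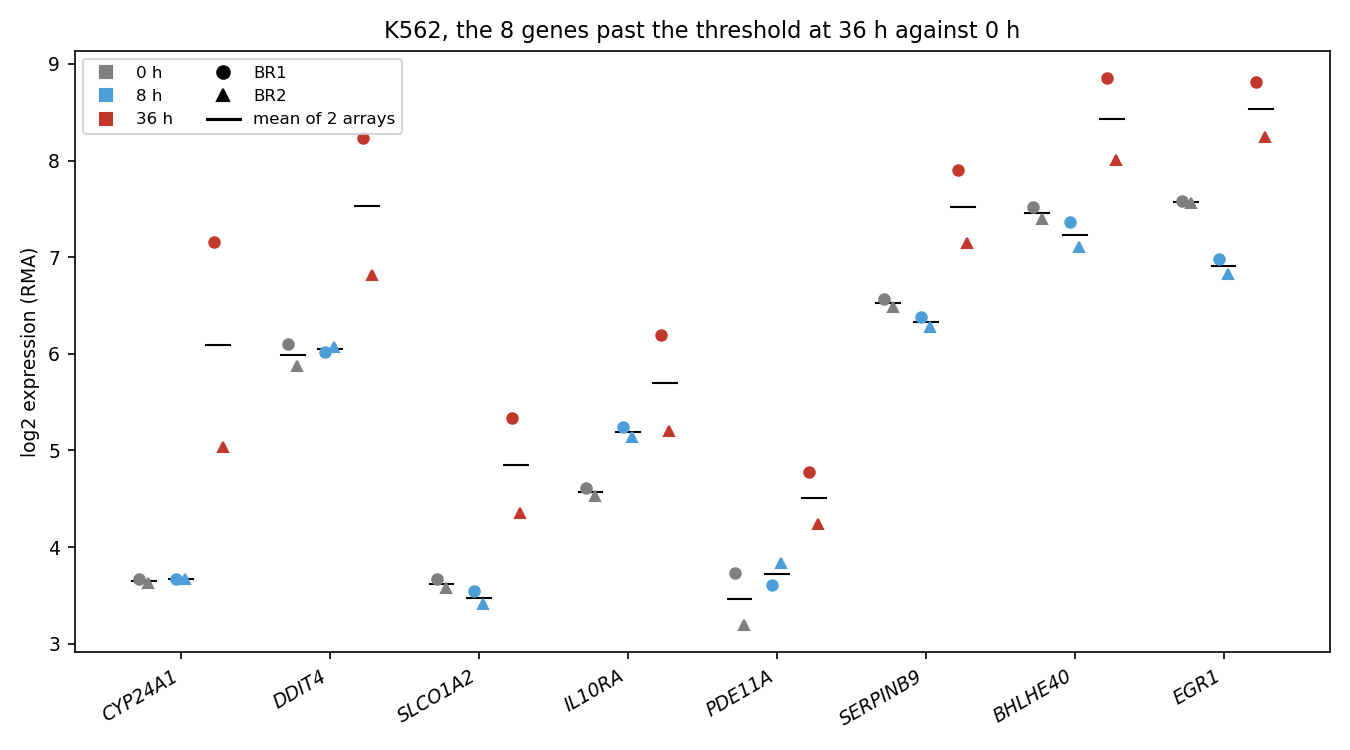
Log2 expression of the 8 genes that passed the test at 36 h against 0 h, for each K562 array at 0 h, 8 h and 36 h. Circles are BR1, triangles BR2 and bars the mean of 2 arrays. In each gene both 36 h arrays lie above both 0 h arrays, and CYP24A1 has the widest distance between its 36 h arrays (7.15 and 5.03).

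Promoters of 3 of these genes are shown because each carries letters of a known response element. They are RefSeq sequences of GRCh38.p14, from 250 bases before the gene's start to 50 after it, and 7 of the 8 genes had an entry. DDIT4 and BHLHE40 are known targets of hypoxia-inducible factor, whose element has the core ACGTG. EGR1 is known to be driven by serum response factor, which binds the CArG box, made of CC, a run of A or T, and GG. Capitals mark ACGTG on either strand in DDIT4 (chr10:72273674-72273973, plus strand) and BHLHE40 (chr3:4979187-4979486, plus strand) and CArG boxes in EGR1 (chr5:138465229-138465528, plus strand).
DDIT4: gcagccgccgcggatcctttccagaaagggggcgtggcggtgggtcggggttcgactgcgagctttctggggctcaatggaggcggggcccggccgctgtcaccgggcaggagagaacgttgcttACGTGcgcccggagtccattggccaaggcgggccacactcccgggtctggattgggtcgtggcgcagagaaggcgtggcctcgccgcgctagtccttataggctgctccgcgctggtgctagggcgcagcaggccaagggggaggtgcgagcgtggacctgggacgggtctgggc
BHLHE40: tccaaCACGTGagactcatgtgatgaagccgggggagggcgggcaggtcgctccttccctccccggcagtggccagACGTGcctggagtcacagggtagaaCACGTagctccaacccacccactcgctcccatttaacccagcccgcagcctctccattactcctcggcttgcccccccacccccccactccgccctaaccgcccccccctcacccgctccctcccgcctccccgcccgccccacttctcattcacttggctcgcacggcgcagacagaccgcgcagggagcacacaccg
EGR1: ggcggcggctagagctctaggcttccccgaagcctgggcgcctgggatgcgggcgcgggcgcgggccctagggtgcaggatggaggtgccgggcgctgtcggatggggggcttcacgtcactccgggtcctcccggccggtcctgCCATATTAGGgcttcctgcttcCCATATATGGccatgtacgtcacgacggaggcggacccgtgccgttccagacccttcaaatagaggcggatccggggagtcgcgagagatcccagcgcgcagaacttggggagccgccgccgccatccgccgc
DDIT4 has 1 ACGTG, 125 bases before its start. BHLHE40 has 4 matches, of which 2 are both strands of the same CACGTG, a sequence that is also an E-box. The promoter of EGR1 and 1 of the 2 listed for SLCO1A2 also hold ACGTG, which is not in capitals in EGR1. At least 1 ACGTG was found in 21.4% of 35116 promoters of this length, so its presence is common. EGR1 has 2 CArG boxes, 105 and 83 bases before its start. In 1.29% of the promoters there was a CArG box, and in 0.0313% there were 2 or more. A match is a description of the letters, not a binding site shown here.

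None of the 8 genes passed when 36 h BR1 was left out. Their differences could not turn negative there, since both 36 h arrays lie above both 0 h arrays in each. With array medians subtracted PDE11A (0.91) and SERPINB9 (0.87) no longer passed (adjusted p = 0.0854 for both), and PDE11A also did not after quantile normalization (adjusted p = 0.0537). Without 36 h BR1 the difference of CYP24A1 was 1.38, a factor of 2.61. DDIT4 was 0.83 (adjusted p = 0.427), SLCO1A2 0.73 (adjusted p = 0.427), EGR1 0.67 (adjusted p = 0.486) and IL10RA 0.63 (adjusted p = 0.620). PDE11A was 0.77, SERPINB9 0.62 and BHLHE40 0.54, with adjusted p-values up to 0.664. A lone array at 36 h is assumed there to vary like the other groups. The difference between the BR1 arrays exceeded that between the BR2 arrays in all 8 genes, by 3.48 against 1.40 in CYP24A1 and by 1.04 in both for PDE11A, where the 2 pairs are nearly equal. The 0 h arrays mattered as well. Without 0 h BR1 3 genes passed, CYP24A1, DDIT4 and PDE11A, and without 0 h BR2 only CYP24A1 (1). Without 36 h BR2, with BR1 alone at 36 h, 457 probe sets were called higher and 31 lower. Over 16 alternative settings the CYP24A1 difference ran from 1.38 to 3.51 with adjusted p-values of 2.08e-10 to 0.649, and that of DDIT4 from 0.83 to 2.25 with adjusted p-values of 1.60e-07 to 1.

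**Figure D2:**
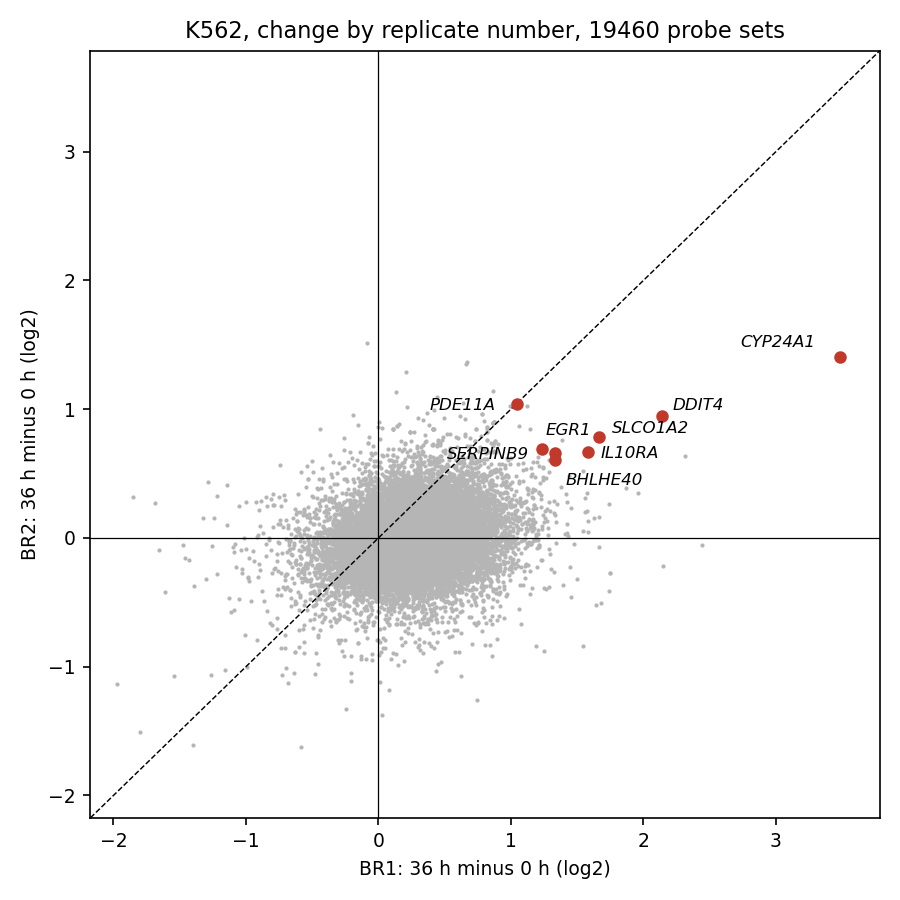
Difference between the 36 h and 0 h arrays of BR1 (horizontal axis, log2) and of BR2 (vertical axis, log2) for 19460 probe sets, with the 8 genes that passed the test in red. The dashed line marks equal differences. PDE11A lies on it (1.04 in both), CYP24A1 lies far below it (3.48 and 1.40), and the cloud as a whole is shifted to the right by a median of 0.26.

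With 36 h BR1 left out 4 other probe sets passed, 0.0206% of those tested. All 4 rest on BR2 at 36 h, and the 2 arrays of 36 h differ in them. GNG2, a G protein gamma subunit, read 4.45 and 5.35 at 36 h in BR1 and BR2, against 3.79 and 3.98 at 0 h (1.47 without BR1, adjusted p = 0.0208). S100A3, a calcium-binding protein, read 3.62 and 4.68 at 36 h, against 3.41 and 3.39 at 0 h (1.28 without BR1, adjusted p = 0.0208). UBE2C, the ubiquitin-conjugating enzyme of the anaphase-promoting complex, read 5.87 and 6.38 at 36 h, against 5.45 and 5.54 at 0 h (0.89 without BR1, adjusted p = 0.0417). UBE2C was as high at 8 h, at 6.15 and 6.16. HEPACAM2, an immunoglobulin-like adhesion protein, was lower in BR2, at 6.19 and 4.39 at 36 h, against 6.16 and 5.77 at 0 h (-1.57 without BR1, adjusted p = 0.0208). In HEPACAM2 the BR1 arrays of 36 h and 0 h were level.

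Known vitamin D response genes apart from CYP24A1 mostly lay slightly higher without passing. Of 34 measured members of that list 0 passed and 33 differences were positive (28 without 36 h BR1). The share of positive differences over all genes was not counted, and their median was itself above 0. In 12 of the 34 both 36 h arrays lay above both 0 h arrays, while over all probe sets the share above was 22.3%. With array medians subtracted 7 lay above and 1 below, while these shares over all were 12% and 10.9%. The list's median was 0.25, against 0.13 over all genes, and without 36 h BR1 these were 0.19 and 0.02. The largest differences were those of HIVEP2, a zinc finger transcription factor, at 5.14 and 4.33 at 36 h, against 4.0 and 3.49 at 0 h (0.99, adjusted p = 0.244), and of the ribosome maturation factor EFL1, at 6.20 and 4.67 at 36 h, against 4.78 and 4.40 at 0 h (0.85, adjusted p = 0.507). The HIVEP2 arrays do not overlap, and EFL1 was high in 36 h BR1 alone. CD38, an ectoenzyme, stood at 4.61 and 4.73 at 36 h, against 3.86 and 4.06 at 0 h, a difference of 0.71 that did not pass (adjusted p = 0.393) and that was 0.77 without BR1. CDKN1A, the p21 inhibitor of cell cycle kinases and a reported calcitriol target in myeloid cells, read 6.15 and 6.19 at 36 h, against 5.39 and 6.02 at 0 h (0.47, adjusted p = 0.597). Among 14 genes of the receptor and of vitamin D metabolism CYP24A1 passed and the other 13 did not. RXRA, the receptor's partner, had a difference of 0.20, and the sterol enzyme DHCR7, which draws on the precursor of vitamin D, had 0.37.

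Genes of amino acid shortage and the ATF4 pathway were higher on balance. ATF4 is a transcription factor made when amino acids or protein folding fail, and its targets import and make amino acids. All 25 of 25 measured members had a positive difference at 36 h against 0 h (22 without 36 h BR1), with a median of 0.32 (0.13 without 36 h BR1), against 0.13 (0.02) over all genes. In 10 of the 25 both 36 h arrays lay above both 0 h arrays, while over all probe sets the share above was 22.3%. With array medians subtracted 6 of the 25 did, while that share over all was 12%. None passed (0 of 25). The share of positive differences over all genes was not counted. It varied between lists, at 23 of 25 low-oxygen, 21 of 25 mitotic and 7 of 26 DNA replication genes. ASNS, asparagine synthetase, read 8.89 and 8.24 at 36 h, against 7.80 and 7.66 at 0 h (0.84 ± 0.18, adjusted p = 0.058). DDIT3, the stress factor CHOP, read 7.50 and 6.69 at 36 h, against 6.73 and 5.90 at 0 h (0.78, adjusted p = 0.264), and its groups overlap. PHGDH, the first enzyme of serine synthesis, had a difference of 0.78 and STC2, a secreted stanniocalcin, had 0.70, of which 0.34 and 0.67 were left without 36 h BR1. In the list around DDIT4, with the sestrins and mTOR control, DDIT4 was the 1 of 15 that passed. Its paralog DDIT4L read 5.13 and 4.87 at 36 h, against 4.01 and 4.80 at 0 h (0.59, adjusted p = 0.435). The median of the list was 0.30, and -0.06 without 36 h BR1. Unfolded protein genes (14 measured, 0 passed) had medians of 0.25 with both arrays and -0.04 without 36 h BR1.

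Low-oxygen and glycolysis genes differed between the 2 arrays of 36 h, as other lists did. None of 25 passed at 36 h against 0 h. Their median was 0.60 between the BR1 arrays and 0.03 between the BR2 arrays, against 0.26 and -0.00 over all genes. For cholesterol synthesis genes these medians were 0.76 and 0.16. The collagen prolyl hydroxylase P4HA1 read 8.76 and 6.87 at 36 h, against 7.13 and 6.72 at 0 h (0.89, adjusted p = 0.435, and -0.05 without 36 h BR1). VEGFA, the vascular growth factor, read 8.17 and 6.85 at 36 h, against 6.89 and 6.77 at 0 h (0.68, adjusted p = 0.339, and 0.02 without 36 h BR1). In both genes only 36 h BR1 was high. The part of this pathway in the differences of DDIT4 and BHLHE40 was not tested.

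Genes of cholesterol and fatty acid synthesis were, by their medians over both arrays, lowest at 8 h and highest at 36 h. These genes are driven by the SREBP factors, which are released when membrane sterol falls. For the 15 cholesterol synthesis genes the median difference was 0.49 at 36 h against 0 h (0.08 without 36 h BR1), 0.77 at 36 h against 8 h, and -0.31 at 8 h against 0 h. Over all genes these medians were 0.13 (0.02), 0.09 and 0.04. None of the 15 passed against 0 h. INSIG1, the membrane protein that holds SREBP back when sterol is plentiful, read 10.05 and 9.11 at 36 h, against 8.81 and 8.56 at 0 h (0.89 ± 0.21, adjusted p = 0.088). The sterol oxidase MSMO1 read 9.08 and 7.16 at 36 h, against 7.21 and 6.77 at 0 h (1.13, adjusted p = 0.377), and HMGCS1, which makes the precursor of mevalonate, differed by 0.93 (adjusted p = 0.297). Both dropped to at most 0.25 without 36 h BR1. For the 11 fatty acid genes the median was 0.30 at 36 h against 0 h (-0.02 without 36 h BR1) and 0.57 against 8 h.

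The comparison of 36 h with 8 h uses the same 36 h arrays and other early arrays, and both groups had been with calcitriol. Here 24 probe sets rose (0.123%) and 3 fell (0.0154%). The 24 that rose were picked by their distance from these 8 h arrays, which favours low 8 h values. Over all genes the median at 8 h against 0 h was 0.04, and no probe set passed there. Of the 24, 22 read lower at 8 h than at 0 h. FADS1, for example, had a mean of 9.42 at 0 h, 8.75 at 8 h and 10.03 at 36 h. CYP24A1 (2.42), DDIT4 (1.48), SLCO1A2 (1.37), SERPINB9 (1.20), BHLHE40 (1.19) and EGR1 (1.63) were among those that rose. The lipid genes that rose were INSIG1, at 10.05 and 9.11 at 36 h, against 8.24 and 8.05 at 8 h (1.43 ± 0.21, adjusted p = 0.000193), the fatty acid desaturases FADS1 (1.28) and SCD (1.07), the sterol carrier STARD4 (1.21) and the acetyl-CoA synthetase ACSS2 (1.18). ASNS rose by 0.91 ± 0.18, at 8.89 and 8.24 at 36 h, against 7.63 and 7.68 at 8 h (adjusted p = 0.0125). SLC2A3, the glucose transporter GLUT3, rose by 1.07 and the taurine carrier SLC6A6 by 0.75. The other rises were the lysosomal membrane protein LAPTM5, the deacylase SIRT4, the phosphatase DUSP10, the phospholipase PLCD1, the butyrophilin BTN3A2, the opsin OPN3, MMD and TMEM156, between 0.77 and 1.48. All 27 differences kept their direction without 36 h BR1, but only 2 then passed, EGR1 and CD69. With 8 h BR1 or 8 h BR2 left out 9 and 8 probe sets changed, and 1585 with 36 h BR2 left out.

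CD69, an early activation antigen of blood cells, read 7.84 and 6.75 at 36 h, against 5.17 and 5.11 at 8 h. It rose by 2.15 ± 0.26 between these times, and without 36 h BR1 it had an adjusted p of 0.0138 (1.04e-07 to 0.0854 over the alternatives). Its 0 h arrays stood at 6.64 and 6.16, between the 8 h and 36 h arrays, and the difference of 36 h from 0 h did not pass (0.89, adjusted p = 0.245). CD69 and EGR1 both read lowest at 8 h, and neither passed at 8 h against 0 h (adjusted p = 0.422 and 0.728). Other immediate early genes did not pass. Of 16 measured members EGR1 was the 1 called at 36 h against 0 h. In 7 both 36 h arrays lay above both 0 h arrays and in 1 below, against 22.3% and 3.88% of all probe sets. With array medians subtracted these counts were 5 and 1, against 12% and 10.9% of all. The list's median was 0.23 (0.10 without 36 h BR1). IER2 read 8.23 and 7.81 at 36 h, against 7.48 and 7.55 at 0 h (0.50, adjusted p = 0.284), while FOS differed by 0.31 and KLF4 by -0.33.

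The microRNA gene MIR223, known from myeloid cells, also rose between 8 h and 36 h. It read 6.68 and 4.96 at 36 h, against 4.08 and 4.19 at 8 h (1.69 ± 0.31, adjusted p = 0.0054, and 0.83 with an adjusted p of 1 without 36 h BR1). Against its 0 h arrays, at 4.37 and 4.33, the difference was 1.47 and did not pass (adjusted p = 0.058). The rise is mostly that of 36 h BR1, and BR2 also lies above the 4 earlier arrays. The mature arms are shown, since they are what acts on target RNAs, with the seed (bases 2 to 8) in capitals. They are RefSeq sequences of GRCh38.p14 on the plus strand, at chrX:66018895-66018916 for the 5p arm and chrX:66018937-66018958 for the 3p arm.
hsa-miR-223-5p: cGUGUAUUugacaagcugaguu
hsa-miR-223-3p: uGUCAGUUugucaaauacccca
The seeds of the 2 arms differ. The array has 1 probe set under the name of the gene, so the arms were not measured separately.

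No gene was called lower at 36 h against 0 h, and the widest gaps on that side included glycine, haem and globin genes. GLDC, the glycine decarboxylase of the mitochondrial glycine cleavage system, read 4.75 and 5.30 at 36 h, against 6.55 and 6.80 at 0 h. Its difference of -1.66 ± 0.35 did not pass (adjusted p = 0.058), and its groups lie more than 1 apart. Over 16 alternative settings it ran from -1.93 to -1.38 with adjusted p-values of 0.0127 to 1, and with array medians subtracted it was -1.79 (adjusted p = 0.0327). ALAS2, the erythroid enzyme that begins haem synthesis from glycine, read 7.47 and 7.34 at 36 h, against 8.18 and 8.10 at 0 h (-0.73 ± 0.18, adjusted p = 0.109). Its 36 h arrays are close to each other, unlike those of the genes that rose, and without 36 h BR1 the difference was -0.80. With array medians subtracted it was -0.86 and passed (adjusted p = 0.0266). Against 8 h, where it stood at 8.38 and 8.49, ALAS2 fell by 1.03 ± 0.18 (adjusted p = 0.00283), and without 36 h BR1 it was -1.10 (adjusted p = 0.0734). Without 8 h BR2 its adjusted p was 0.159.

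HBZ, the embryonic zeta-globin, has 2 probe sets. The brighter read 10.59 and 11.02 at 36 h, against 11.50 and 11.32 at 0 h (-0.60, adjusted p = 0.484), and the other 8.98 and 9.21 at 36 h, against 10.52 and 10.29 at 0 h (-1.31, adjusted p = 0.305). In both the groups do not overlap, and the sizes differ. At 8 h the brighter one stood at 11.93 and 11.87, and between 8 h and 36 h it fell by 1.09 ± 0.24 (adjusted p = 0.0494, which was 0.246 or more when either 8 h array or 36 h BR1 was left out). The other gene that fell between 8 h and 36 h was LARP6, an RNA-binding protein (-0.88). HBE1, the embryonic epsilon-globin, was close at both times, at 11.49 and 11.39 at 36 h, against 11.62 and 11.55 at 0 h (-0.15, adjusted p = 0.900). HBD, delta-globin, read 5.49 and 5.85 at 36 h, against 6.25 in both arrays at 0 h (-0.58, adjusted p = 0.442). Of 7 measured globin genes 0 passed against 0 h, and the list's median was -0.15 (-0.20 without 36 h BR1). Fetal and alpha-globins are not on probe sets with 1 symbol and were not used here.

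The promoter of ALAS2 is shown for the GATA motif, the letters read by the erythroid factor GATA1 (chrX:55030928-55031227, minus strand, RefSeq, GRCh38.p14).
ALAS2: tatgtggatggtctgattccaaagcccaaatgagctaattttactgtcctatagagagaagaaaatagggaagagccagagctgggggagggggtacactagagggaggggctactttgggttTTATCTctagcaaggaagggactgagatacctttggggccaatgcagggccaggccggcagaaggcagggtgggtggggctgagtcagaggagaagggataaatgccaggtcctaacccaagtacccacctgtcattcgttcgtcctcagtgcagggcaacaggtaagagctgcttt
The capitals mark 1 match, 127 bases before the start, to AGATAA or TGATAA searched on both strands. In 16.3% of the promoters there was at least 1 such match.

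Other erythroid genes did not pass. Among 18 genes of the red cell surface and of erythroid regulation 12 differences were negative, 5 had both 36 h arrays below both 0 h arrays and 1 had them above (8 and 1 with array medians subtracted). Over all probe sets the shares below and above were 3.88% and 22.3% (10.9% and 12% with array medians subtracted). The list's median was -0.17 (-0.11 without 36 h BR1), against 0.13 (0.02) over all genes. KEL, the Kell blood group protein, read 7.23 and 8.10 at 36 h, against 8.66 and 8.28 at 0 h (-0.80, adjusted p = 0.340), and RHAG, the Rh-associated glycoprotein, 8.40 and 9.01 at 36 h, against 9.36 and 9.50 at 0 h (-0.73, adjusted p = 0.328). In both 36 h BR1 was the lower array. Of the 11 genes of haem synthesis, ALAS2 among them, 0 passed. Their median was 0.04 with 5 negative differences, and -0.20 with 10 negative ones without 36 h BR1. Apart from ALAS2 the differences ran from -0.21 for the transporter ABCB10 to 0.40 for CPOX. Iron genes (9 measured, 0 passed) had a median of 0.05, which turned to -0.18 without 36 h BR1. In the ferroportin gene SLC40A1 the difference was -0.33. Megakaryocyte genes, of the other lineage that K562 is known to enter, had a median of 0.12 over 13 genes (0.21 without 36 h BR1), led by FLI1 at 4.38 and 3.85 at 36 h, against 3.40 and 3.82 at 0 h (0.50, adjusted p = 0.426).

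**Figure D3:**
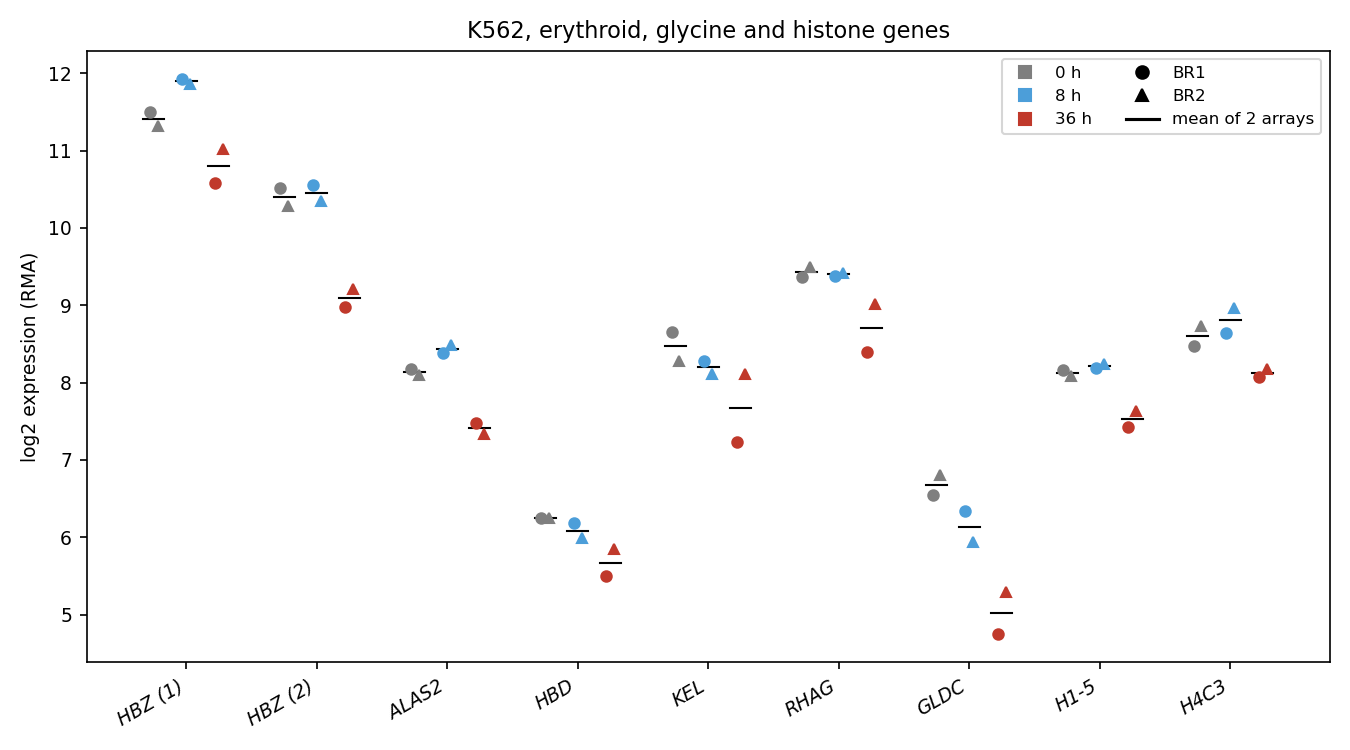
Log2 expression of globin, haem, blood group, glycine and histone genes in each K562 array at 0 h, 8 h and 36 h, with circles for BR1, triangles for BR2 and bars for the mean of 2 arrays. HBZ is drawn for its brighter probe set (1) and its other (2). None passed the test against 0 h, and GLDC has the widest gap (4.75 and 5.30 at 36 h, against 6.55 and 6.80 at 0 h).

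Histone genes that are used during DNA replication were lower on balance. Of 19 measured members 16 had a negative difference and in 12 both 36 h arrays lay below both 0 h arrays, while over all probe sets the share below was 3.88%. With array medians subtracted 15 of the 19 lay below, while that share over all was 10.9%. None passed (0 of 19). The list's median was -0.25, or -0.36 without 36 h BR1, against 0.13 and 0.02 over all genes. H1-5, a linker histone, read 7.42 and 7.64 at 36 h, against 8.16 and 8.08 at 0 h (-0.59 ± 0.18, adjusted p = 0.299), and the core histone H2AC8 4.90 and 5.01 at 36 h, against 5.55 and 5.54 at 0 h (-0.59, adjusted p = 0.299). H2BC9 (-0.76) and H2AC4 (-0.54) were also among the widest gaps. Probe sets of these near-identical genes may share signal, so they are not independent of each other.

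In the lists of cell growth no gene passed against 0 h. The median over all genes was 0.13 (0.02 without 36 h BR1). Of 26 genes of DNA replication and the G1/S transition 0 passed and 19 had negative differences, with a median of -0.08 (-0.27 without 36 h BR1). Cyclin E1, CCNE1, read 7.32 and 7.07 at 36 h, against 7.71 and 7.30 at 0 h (-0.31, adjusted p = 0.745). Of 25 mitotic genes 0 passed, with a median of 0.09 (-0.18 without 36 h BR1), and UBE2C had the largest difference (0.63, adjusted p = 0.0992). Among 19 genes of MYC and ribosome building 0 passed and 17 had negative differences, with a median of -0.14 (-0.23 without 36 h BR1), such as the nucleolar proteins LYAR (-0.35) and NOP16 (-0.33). The small nucleolar RNAs SNORA74A, SNORA62 and SNORD12C, whose genes guide the modification of ribosomal RNA, had differences of -0.85, -0.83 and -1.16 with groups that did not overlap, none of them passing. Heat shock genes (10 measured, 0 passed) had a median of -0.14 (-0.28 without 36 h BR1), with HSPA8, a highly expressed chaperone, at 12.29 and 12.26 at 36 h, against 12.58 and 12.48 at 0 h. The CDK inhibitors and growth arrest genes (14 measured, 0 passed) had a median of 0.17 (0.02 without 36 h BR1).

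Immune gene lists held differences of both signs. Interferon-stimulated genes (19 measured, 0 passed) had a median of 0.19 with both arrays and 0.20 without 36 h BR1. The largest difference was that of IFIT2, an antiviral RNA-binding protein, at 3.46 and 3.34 at 36 h, against 3.0 and 2.73 at 0 h (0.53, adjusted p = 0.609). Among 18 genes of NF-kB and inflammation 0 passed, with a median of 0.31 (0.11 without 36 h BR1). The inhibitor NFKBIA read 7.08 and 6.77 at 36 h, against 6.60 and 6.23 at 0 h (0.51, adjusted p = 0.405). Monocyte markers summed to 22.4 and 22.1 over 4 genes at 36 h, against 21.4 and 21.8 at 0 h, and none of the 4 passed. The lists of oxidative stress (median 0.13), autophagy (0.11), apoptosis (0.17), the respiratory chain (0.12) and the proteasome (-0.01) had no gene that passed, beside a median of all genes of 0.13, and without 36 h BR1 they were -0.10, -0.04, 0.09, -0.15 and -0.15.

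**Figure D4:**
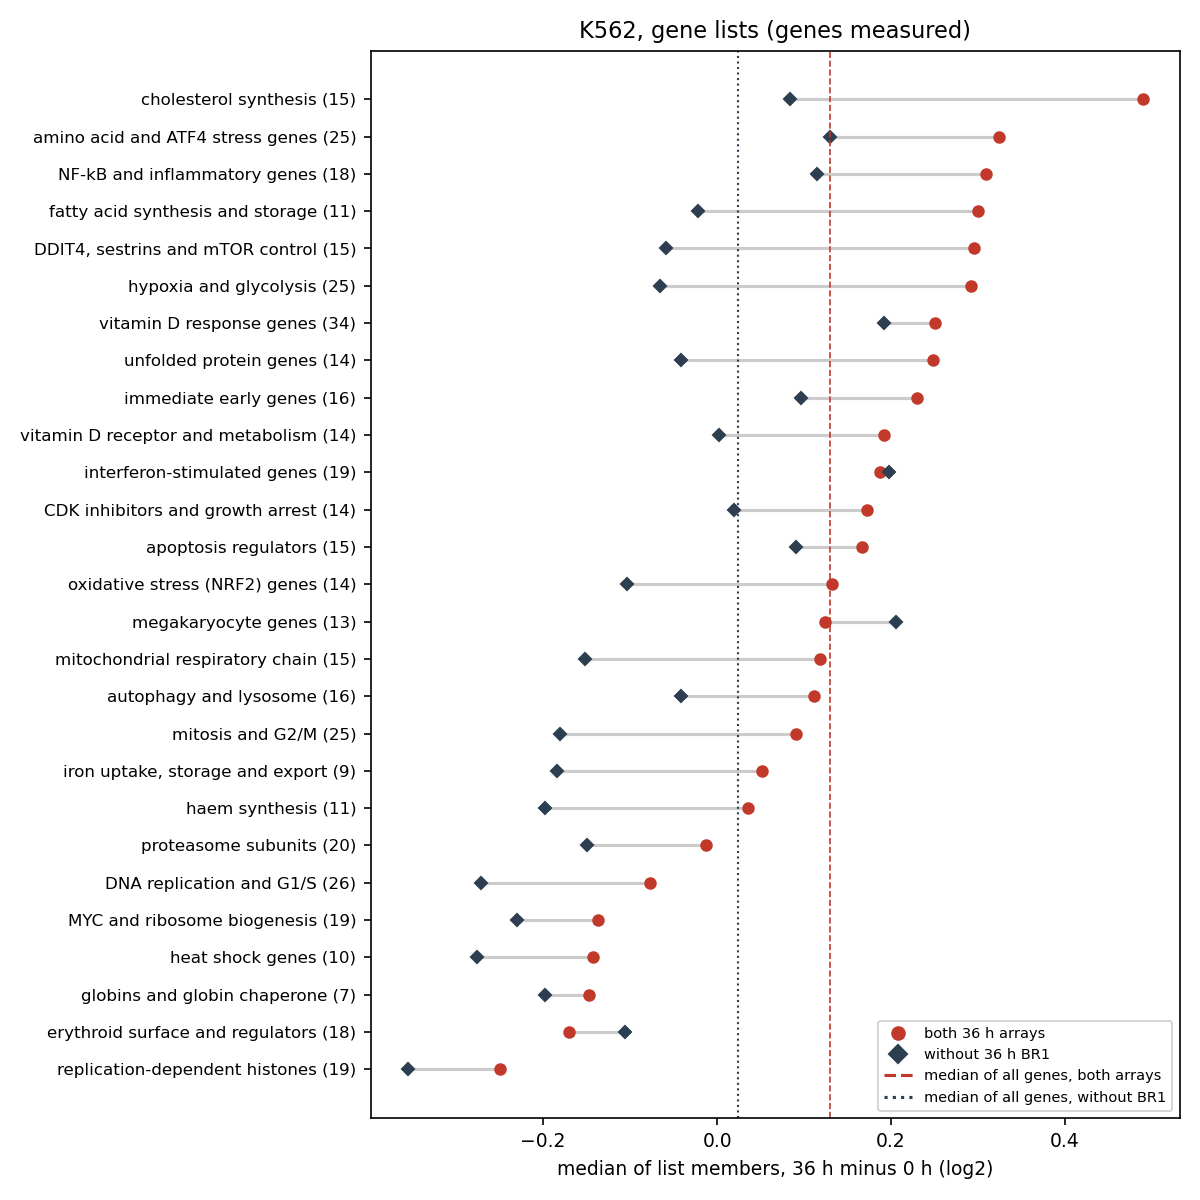
Median difference between 36 h and 0 h (log2, horizontal axis) for each gene list with the number of genes measured, with both 36 h arrays (circles) and without 36 h BR1 (diamonds). Vertical lines mark the medians of all genes (0.13 and 0.02). Cholesterol synthesis is highest with both arrays (0.49) and drops to 0.08 without 36 h BR1, while histones are lowest in both (-0.25 and -0.36).

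Some further genes had wide gaps between the groups without passing. LINC00965, a multicopy transcript, has 26 probe sets, which filled most of the places among the widest upward gaps. They differed by 0.74 to 0.89 (0.63 to 0.93 without 36 h BR1), with adjusted p-values of 0.0815 to 0.230, and since they read near-identical copies they count as 1 observation. Further genes with wide gaps were looked up after their values were seen. PAGE5, a cancer-testis antigen, read 6.81 and 7.12 at 36 h, against 5.92 and 6.36 at 0 h (0.82, adjusted p = 0.140), while PRAME, another such antigen, read 11.08 and 11.08 at 36 h, against 11.57 and 11.49 at 0 h (-0.46, adjusted p = 0.604). On the lower side the neuropeptide GAL read 7.48 and 8.24 at 36 h, against 9.10 and 8.66 at 0 h (-1.02, adjusted p = 0.112). MS4A3, a membrane protein of myeloid progenitors, read 5.33 and 4.74 at 36 h, against 6.32 and 5.75 at 0 h (-1.0, adjusted p = 0.136), and the short-chain dehydrogenase DHRS13 7.33 and 7.29 at 36 h, against 8.14 and 7.94 at 0 h (-0.74, adjusted p = 0.0985). None of these passed in the main fit, while DHRS13, GAL and MS4A3 did in some alternative settings. DHRS13 passed with array medians subtracted (-0.87, adjusted p = 0.0266) and with a mean of at least 6 (adjusted p = 0.0472). Without the outlying arrays of AG09319 and HepG2, DHRS13, GAL and MS4A3 passed (adjusted p = 0.0219, 0.0366 and 0.028).

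At 8 h against 0 h no probe set changed by limma (0 of 19460, 0%), with 942 at an unadjusted p under 0.05. CYP24A1, at 3.67 in both 8 h arrays, differed from its 0 h mean by 0.02. Without 0 h BR2 8 probe sets passed and without 8 h BR1 1 did.

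The response of K562 was also set against that of HL60, the other myeloid leukaemia line of the series, as a difference of the 2 changes at 36 h against 0 h. It differed in 36 probe sets (0.185%), 10 more positive in K562 and 26 more negative. CYP24A1 reached 6.09 at 36 h in K562, against 10.04 in HL60, from like levels at 0 h (3.65 in K562 and 3.60 in HL60). Its change was 4.0 ± 0.47 smaller in K562 (-4.0, adjusted p = 1.51e-06), and without 36 h BR1 of K562 the difference was -5.06. The myeloid genes MMP8, a neutrophil collagenase (-4.72), FBP1, fructose bisphosphatase (-4.63), CD14, the monocyte receptor for endotoxin (-3.81), and ORM2, an acute phase protein (-3.29), also set the lines apart. CD14 stood at 5.33 at 36 h and 5.04 at 0 h in K562, while HL60 stood at 10.08 and 5.98. Of the 26 genes that were more negative in K562, 23 were so without 36 h BR1 as well. The count of 36 was 117 without 36 h BR2 of K562, 23 without 0 h BR1 of K562 and 18 without 36 h BR2 of HL60.

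On the other side the lines differed in F13A1, the coagulation factor XIII A chain (1.83), and KIT, the stem cell factor receptor (1.64). In K562 they stood at 0.62 and -0.14 without passing, and in HL60 both fell, by 1.20 and 1.78. MLC1, a membrane protein (1.40), was 0.07 in K562 and fell by 1.33 in HL60. SLCO1A2 differed by 1.45, with 1.22 in K562 and -0.23 in HL60, and ASNS by 1.31, with 0.84 in K562 and -0.48 in HL60. Without 36 h BR1 of K562 only 1 of the 10 genes on this side passed, MLC1 (1.55, adjusted p = 0.0103).

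**Figure D5:**
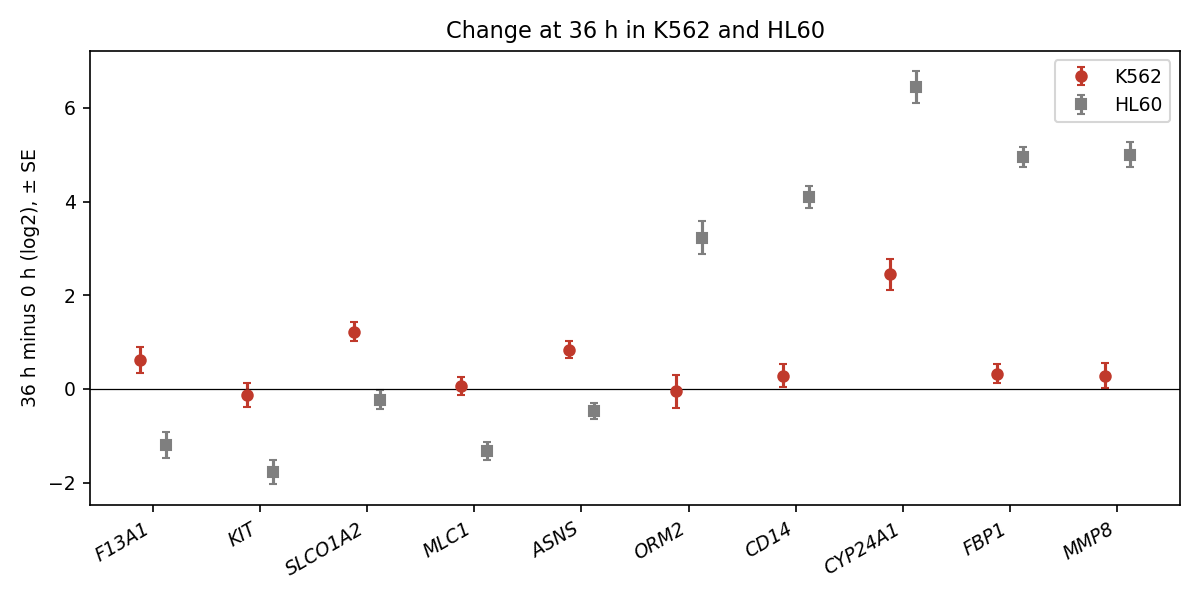
Difference between 36 h and 0 h (log2, with standard errors) in K562 (circles) and HL60 (squares) for the 5 genes with the largest difference between the lines in each direction. In MMP8, FBP1 and CD14 K562 lies between 0.28 and 0.33 and HL60 at 4 or more, while in F13A1, KIT and MLC1 K562 lies at 0.62, -0.14 and 0.07 and HL60 below -1.

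Against the mean of the other 8 lines the K562 change differed in 11 probe sets (0.0565%), 7 more positive and 4 more negative. EGR1 was 0.96 in K562 and -0.32 on average elsewhere, a difference of 1.28 ± 0.18 (adjusted p = 0.000430). Without 36 h BR1 this difference was 0.99. The average elsewhere includes -1.73 in AG09309 and -0.53 in HepG2. EGR1 rose by 0.58 in AG09319, and the remaining lines ran from -0.24 to -0.09. SLCO1A2 (1.26), IL10RA (1.19) and PDE11A (1.07) differed with both arrays and not without 36 h BR1. H2BC14, a core histone, differed by 1.35, with 0.60 in K562 and -0.75 elsewhere. UBE2C differed by 1.04 (1.30 without 36 h BR1), with 0.63 in K562. It fell in AG09309 (-0.89), HepG2 (-0.93) and AG09319 (-1.07), and its changes in the remaining lines lay between -0.18 and -0.02. On the negative side CLMN, which encodes calmin, was -0.10 in K562 and 1.01 on average elsewhere (-1.11, adjusted p = 0.00764, and -1.32 with an adjusted p of 0.0153 without 36 h BR1). STS, the steroid sulfatase, was 0.08 in K562 and 1.10 on average elsewhere (-1.02, adjusted p = 0.00764). The sulfatase SULF2 (-0.87) and the pseudogene RPS14P3 (-1.01) also differed. Of the 11 differences 3 passed without 36 h BR1. The count of 11 was 7 in all without 36 h BR1, 161 without 36 h BR2 and 1 without 0 h BR1. For CYP24A1 the K562 change of 2.44 ranked 4 of 9, after HL60 (6.44) and the fibroblast lines AG09309 (6.08) and AG09319 (5.24) and before 1.38 in GM07019, and its difference from the mean of the others did not pass with both arrays (-0.39, adjusted p = 0.764) and passed without 36 h BR1 (-1.46, adjusted p = 0.0396). DDIT4 had its highest change of the 9 lines in K562 with both arrays, and its difference from the mean of the others did not pass (0.94, adjusted p = 0.330). Without 36 h BR1 the K562 change of DDIT4 was 0.833, below GM07348 (0.855) and AG09319 (0.850). Its difference from the mean of the others was then 0.23.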

How the data were processed

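An Exiqon kit was used to isolate total RNA, which was labelled by the Affymetrix WT method, per the labels' protocols. The deposited values are log2 expression, which the authors made with RMA in Affymetrix Expression Console 1.0, per the submitters' processing notes. The sources used here do not say whether RMA was run on all 54 arrays at once. Of 33297 probe sets, 19460 had 1 gene symbol in the platform annotation that GEO holds (18417 genes), 1754 had several and the rest are unnamed here. Symbols were checked against RefSeq (19429 matched).

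The values were used as deposited, without a filter. The 27 groups were fitted together with limma 3.58.1 in R 4.3.3 (27 residual and 8.89 prior degrees of freedom), two-sided, with Benjamini-Hochberg adjustment over 19460 probe sets and a threshold of 0.05. The fit was checked on simulated data with the same spread in every group. That check cannot show what the wider spread of the K562 groups does to the calls. Lines were compared by testing the difference between their changes at 36 h. Groups came from the cell line and time labels, and no 2 arrays were identical (0 pairs). Arrays have no depth, and their number limits the precision.

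The members, the 33 gene lists (525 genes, of which 474 were measured), the tests and the alternatives were chosen with earlier results of these data known. Named genes were CYP24A1, DDIT4 and VDR, the genes past the threshold, the 10 widest gaps between the arrays of 36 h and 0 h in each direction (a mean of at least 6 in 1 of both groups), 2 members of each list without a called gene, and the 5 largest differences between lines in each direction. Other genes named, among them those called against 8 h or without 36 h BR1 and further list members, were chosen after their values were seen. In lists the brightest probe set stands for a gene that has several. Tables and plots used Python 3.11.15, numpy 2.4.6, pandas 2.3.3 and matplotlib 3.10.9, and R used the data.table package (version 1.17.8).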

Additional observations from a re-analysis of the deposited data

Results flagged for a closer look

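The changes of K562 differed from those of another line, or from the mean of the other 8, by limma's test of the difference itself in the genes below. Differences are the K562 change minus the other, in log2.

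Against HL60 the change was higher in K562 in F13A1 (1.83), KIT (1.64), SLCO1A2 (1.45), MLC1 (1.40) and ASNS (1.31). It was lower in K562 in MMP8 (-4.72), FBP1 (-4.63), CYP24A1 (-4.0), CD14 (-3.81) and ORM2 (-3.29). Without 36 h BR1 of K562 the 5 lower ones and MLC1 still passed, while F13A1 (1.48, adjusted p = 0.280), KIT (1.21, adjusted p = 0.384), SLCO1A2 (0.96, adjusted p = 0.205) and ASNS (0.99, adjusted p = 0.136) did not.

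Against the other 8 lines the change was higher in K562 in H2BC14 (1.35), EGR1 (1.28), SLCO1A2 (1.26), IL10RA (1.19) and PDE11A (1.07). It was lower in K562 in CLMN (-1.11), STS (-1.02), RPS14P3 (-1.01) and SULF2 (-0.87). Without 36 h BR1 the adjusted p was 0.0442 for EGR1 and 0.0153 for CLMN, 0.0749 for H2BC14 and SULF2, 0.0980 for STS and 0.245 or more for the others. The mean of the other lines gives each line the same weight, and those lines differ among themselves.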

How the results depend on the processing

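Against 0 h 8 probe sets were higher and 0 lower. The number higher was 0 with the spread of the K562 arrays alone (0 lower), 1 with array weights (0 lower), 22 with a mean of at least 6 (2 lower), 54 without the outlying arrays of AG09319 and HepG2 (9 lower), and 47 against the 4 arrays of 0 h and 8 h together (3 lower), the last chosen after seeing the data. Lower probe sets numbered 2 after quantile normalization (10 higher), 3 with array medians subtracted (6 higher) and 1 with a trended prior (9 higher). Leaving out 1 array or both BR1 arrays gave 0 to 457 higher, the 457 without 36 h BR2, and 0 to 31 lower. Of the 8 named genes 0 passed with the K562 arrays alone, 1 with array weights, 5 with the filter on means, which removes dim genes, and 0 to 8 with arrays left out. At 8 h against 0 h the count of 0 became 1 after quantile normalization and 1 with the replicate block, and 0 to 8 with 1 array left out. For 36 h against 8 h the 27 became 0 with the K562 arrays alone, 43 after quantile normalization, 44 with the filter, 59 with the replicate block, 161 without outlying arrays of other lines, and 2 to 1585 with 1 array left out. Against HL60 the 36 became 17 with both lines alone, 21 with array weights, 64 after quantile normalization, 60 without outlying arrays and 18 to 117 with arrays left out. Against the other 8 lines the 11 became 0 with array weights and 1 to 161 with arrays left out. Where no value above shows it, the cause was not tested.

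No label says that the replicate numbers pair the cultures, and with 2 pairs the main fit did not pair them. The BR1 minus BR2 differences of K562 correlated across probe sets by 0.585 between 0 h and 36 h, 0.510 between 0 h and 8 h and 0.356 between 8 h and 36 h. In the other lines those between 0 h and 36 h ran from -0.303 (AG09319) to 0.269 (GM07348). BR1 and BR2 of K562 thus differed partly alike at each time. Leaving out 36 h BR1 alone keeps 0 h BR1 in the comparison. With the replicate block 9 probe sets were higher at 36 h against 0 h, 33 differed from HL60 and 8 from the other lines. Of 18 genes recomputed at 36 h against 0 h and 8 at 36 h against 8 h, 2 reversed. With arrays left out P4HA1 ran from -0.054 (without 36 h BR1) to 1.84, and VDR from -0.090 (without both BR1 arrays) to 0.74. Of the 474 genes of the lists 148 changed sign without 36 h BR1 and 102 with array medians subtracted. The smallest changes that 2 arrays against 2 can show are limited by the shared spread, and signal over background was not given.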
